A study of Mus musculus with 16 samples.

Results

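The 6 genes described here handle bacterial endotoxin at the cell surface or break it down: Lbp, Cd14, Ly96, Cd180, Ly86 and Aoah. They were taken from the 22180 genes that carried their own probe set on arrays of mouse bone marrow myeloid progenitors, and each had 1 probe set with its symbol alone. Probe sets were to be chosen by their mean log2 signal over the 16 arrays, the brightest for each gene, which left no choice to make, and no comparison below uses that mean. The genes themselves were listed with earlier results of these arrays known, so no test was run over them as a group, and each was read from a fit of all 22180 genes. Of the 6 genes, 5 were higher in the monocyte-committed progenitor than in the earliest one, rising by 1.59-fold to 11.8-fold, where 18.9% of all genes passed in either direction and 9.72% were higher. After antibiotics only Ly96 passed the test, with a fall of 2.06-fold in granulocyte-monocyte progenitors, where 0.0721% of all genes passed. That call was lost in 11 of 16 fits that left out an array and in 4 of 9 other alternatives.

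Endotoxin, or lipopolysaccharide, is the lipid of the outer membrane of Gram-negative bacteria. LBP, a plasma protein made mainly by the liver, lifts lipopolysaccharide out of bacterial membranes and hands it to CD14, which passes it to MD-2, the product of Ly96. MD-2 is bound to the outer part of the receptor TLR4 and holds the lipid while the receptor dimerises and signals. CD180 resembles TLR4 without its signalling domain and is bound by MD-1, the product of Ly86. The CD180 and MD-1 pair is best known from B cells and modulates TLR4 responses. AOAH, acyloxyacyl hydrolase, ends the signal by removing acyl chains from the lipid. The mixture of antibiotics used here is widely given to deplete gut bacteria, a source of endotoxin.

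The cells came from wild-type C57BL/6 mice that drank, for 3 weeks, either control water or water with ampicillin, metronidazole, neomycin and vancomycin, each at 1 g/L. Both waters held 2% sucrose, so the controls are sugar-fed mice. All cells were lineage-negative, c-Kit-positive and CD105-negative, with antibodies to Sca-1 among the lineage panel. Common myeloid progenitors (CMPs) were sorted as CD16/32mid CD115-, granulocyte-monocyte progenitors (GMPs) as CD16/32high CD115- and committed monocyte progenitors (cMoPs) as CD115+ Ly6C+. There were 3 antibiotic and 3 control arrays of CMPs, and 3 antibiotic and 2 control arrays each of GMPs and cMoPs. The labels give neither the age of the mice nor whether an array held cells of 1 mouse or of a pool, so p-values measure only the spread between these samples, which may be technical.

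The deposited values are log2 signals, and the number of arrays limits their precision. The arrays had medians of 4.04 to 4.17 and lower quartiles of 2.89 to 2.99, and pairs of arrays within a group had r = 0.985 to 0.991 across genes, which are not independent replicates. The genes of the sort gate differed between the sorted cells. Fcgr3, which encodes CD16, was 3.14 higher on the log2 scale in GMPs than in CMPs, and Csf1r, which encodes CD115, was 1.95 higher in cMoPs than in GMPs. Ly6c2 was 2.41 higher in cMoPs than in CMPs but only 0.14 higher than in GMPs (limma adjusted p = 0.817). Eng, which encodes CD105, had means of 8.17 to 8.5 in CMPs, although the gate excluded the protein.

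Lbp separated CMPs from the later progenitors. In CMPs it read 8.04, 7.71 and 8.1 on the control arrays and 7.18, 7.01 and 7.71 on the antibiotic arrays. In GMPs it read 9.8 and 9.76 with control water and 9.89, 9.72 and 9.93 with antibiotics, and in cMoPs 9.47 and 9.48 against 9.59, 9.46 and 9.63. Every GMP and cMoP array thus lay above every CMP array, and every cMoP array lay below every GMP array. Lbp rose 4.56-fold from CMPs to GMPs (log2 difference 2.19 ± 0.12 SE, limma adjusted p = 2.68e-09) and was 3.71-fold higher in cMoPs than in CMPs (1.89 ± 0.12, adjusted p = 1.07e-08). The difference from GMPs to cMoPs did not pass (-0.3 ± 0.13, adjusted p = 0.266). Each difference between progenitors is the equal-weight mean over both waters and was tested at a false discovery rate of 0.05 over all genes. In a sorted population, fewer cells of a type and less RNA per cell cannot be told apart.

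**Figure D1:**
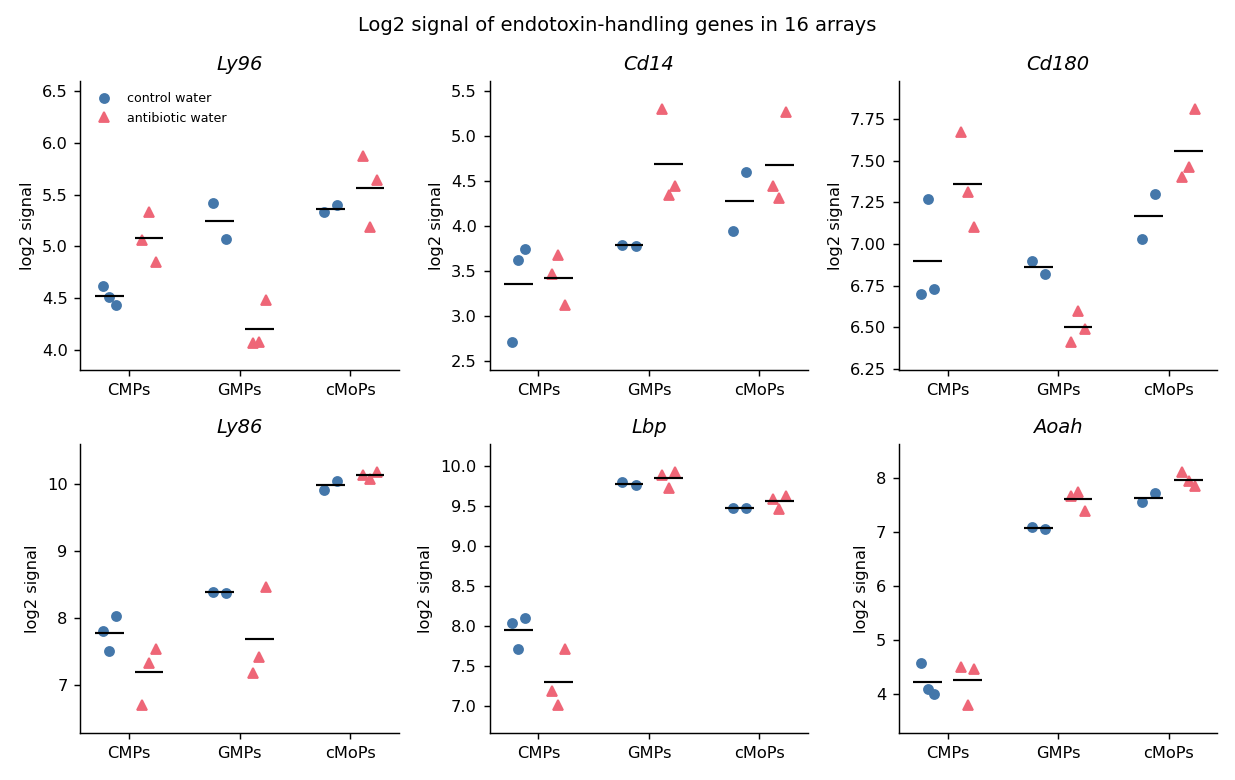
Log2 signal (vertical axis, a separate scale in each panel) of the 6 genes in CMPs, GMPs and cMoPs, with 1 point per array, circles for control water, triangles for antibiotic water and bars for group means. Ly86 stands apart in cMoPs (9.91 to 10.18), Lbp and Aoah are lowest in CMPs, and the Ly96 antibiotic arrays lie above the controls in CMPs and below them in GMPs.

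Cd14, the surface protein that receives the lipid from LBP, had a dim probe set. Its CMP arrays lay between 2.71 and 3.75, under the median of each array, and CMP control 1, at 2.71, lay under the lower quartiles. In GMPs it read 3.79 and 3.78 with control water and 5.3, 4.34 and 4.44 with antibiotics, and in cMoPs 3.95 and 4.6 against 4.45, 4.31 and 5.27. All GMP and cMoP arrays were above all CMP arrays. Cd14 was 1.8-fold higher in GMPs than in CMPs (0.85 ± 0.24, adjusted p = 0.0224) and 2.12-fold higher in cMoPs than in CMPs (1.08 ± 0.24, adjusted p = 0.00355). GMPs and cMoPs overlapped (0.24 ± 0.25, adjusted p = 0.755).

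The first of these Cd14 differences missed 0.05 without GMP antibiotic 1 (0.7, adjusted p = 0.0554), CMP antibiotic 3 (0.77, 0.0547), CMP control 1 (0.69, 0.0503), GMP control 1 (0.84, 0.069) or GMP control 2 (0.85, 0.0649). With control water alone it was 0.42 ± 0.31 (adjusted p = 0.577), and with antibiotic water alone 1.27 ± 0.29 (adjusted p = 0.0162). For cMoPs against CMPs the corresponding values were 0.92 ± 0.31 (adjusted p = 0.142) and 1.25 ± 0.29 (adjusted p = 0.0141).

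Ly96, the lipid-binding subunit of the TLR4 complex, took a different order in each water. With control water it read 4.62, 4.51 and 4.43 in CMPs, 5.42 and 5.07 in GMPs and 5.33 and 5.4 in cMoPs, so CMPs lay below both later progenitors. With antibiotics it read 5.06, 5.33 and 4.85 in CMPs, 4.06, 4.07 and 4.48 in GMPs and 5.87, 5.19 and 5.64 in cMoPs, so GMPs lay below the other progenitors. GMPs minus CMPs was 0.72 ± 0.17 with control water alone (adjusted p = 0.0385) and -0.88 ± 0.2 with antibiotic water alone (adjusted p = 0.0142). Averaged over both waters it was -0.08 ± 0.14 (adjusted p = 0.788), a value that describes neither water.

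Averaged in the same way, Ly96 was 1.67-fold higher in cMoPs than in GMPs (0.74 ± 0.14, adjusted p = 0.00462) and 1.59-fold higher than in CMPs (0.67 ± 0.14, adjusted p = 0.00207). The values within each water are given beside these averages. The excess over GMPs was 0.12 ± 0.18 with control water alone (adjusted p = 0.928) and 1.36 ± 0.2 with antibiotic water alone (adjusted p = 0.00228). The excess over CMPs was 0.84 ± 0.17 (adjusted p = 0.0155) and 0.49 ± 0.2 (adjusted p = 0.155). Neither excess was shown to differ between waters: the difference was 1.24 ± 0.29 for cMoPs minus GMPs (adjusted p = 0.712) and -0.36 ± 0.27 for cMoPs minus CMPs (adjusted p = 0.882). In the order of its 6 group means, antibiotic GMPs were lowest at 4.2 and antibiotic cMoPs highest at 5.57, and among neighbours in that order only control CMPs (4.52) and antibiotic CMPs (5.08) had ranges that did not overlap.

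Tlr4, the receptor that MD-2 serves, peaked in GMPs in both waters. Its arrays ranged from 4.34 to 4.96 in CMPs, with a median of 4.58, from 6.23 to 6.63 in GMPs (median 6.39) and from 5.12 to 5.75 in cMoPs (median 5.46), so no 2 progenitors overlapped. Tlr4 was 3.55-fold higher in GMPs than in CMPs (1.83 ± 0.14, adjusted p = 1.38e-07) and 2.01-fold lower in cMoPs than in GMPs (-1 ± 0.15, adjusted p = 0.000496). Antibiotics minus control was 0.13 ± 0.19 in CMPs, -0.05 ± 0.21 in GMPs and 0.01 ± 0.21 in cMoPs for Tlr4. In GMPs, where Ly96 was lower after antibiotics, the 95% interval of the Tlr4 difference ran from -0.51 to 0.4.

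Cd180 and Ly86 encode partners of a single surface complex, yet their signals followed different courses. Their start regions are printed to show the sequence of 2 partners with unlike courses, beside each other. The bases are the 250 before the start site in RefSeq's table for GRCm38.p6, plus strand, 5′ to 3′. Cd180 had 2 entries there, and only the first was searched and printed. Capitals mark a match to any of 6 short motifs on either strand: ETS (GGAAGT), C/EBP (TTGCNNAA), AP-1 (TGANTCA), IRF (GAAA, NN, GAAA), the composite of PU.1 and IRF (GGAA, NN, GAAA) and NF-kB (GGG, NN, TT, N, CC). The composite and IRF motifs can share bases.
Cd180, chr13:102693297-102693546: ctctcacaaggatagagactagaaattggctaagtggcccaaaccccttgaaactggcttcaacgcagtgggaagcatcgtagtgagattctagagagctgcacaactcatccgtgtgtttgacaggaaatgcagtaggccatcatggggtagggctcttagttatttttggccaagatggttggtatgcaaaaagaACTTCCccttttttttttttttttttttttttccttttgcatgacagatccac
Ly86, chr13:37345095-37345344: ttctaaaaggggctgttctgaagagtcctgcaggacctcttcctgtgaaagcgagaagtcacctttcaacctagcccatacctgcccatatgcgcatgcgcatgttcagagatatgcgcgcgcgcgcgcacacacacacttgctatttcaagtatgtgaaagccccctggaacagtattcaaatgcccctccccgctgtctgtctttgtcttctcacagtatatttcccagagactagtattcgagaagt
Cd180 held an ETS match on the minus strand, at bases -53 to -48 from the start, followed by a long run of t, and Ly86 held none of the 6 motifs. Of 27025 such regions in the table, 20.0% held the ETS letters, 9.55% C/EBP, 6.87% AP-1, 4.0% NF-kB, 3.04% IRF and 2.38% the composite. A match describes letters and not a bound site. Start regions of 3 of the 6 genes are printed here.

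Ly86 marked the monocyte-committed cells. It read 7.81, 7.51 and 8.03 in control CMPs and 6.71, 7.34 and 7.54 in antibiotic CMPs. It read 8.39 and 8.38 in control GMPs and 7.19, 7.42 and 8.46 in antibiotic GMPs. In cMoPs it read 9.91 and 10.04 with control water and 10.13, 10.07 and 10.18 with antibiotics. No cMoP array overlapped any CMP or GMP array, while CMPs and GMPs overlapped. Ly86 rose 4.04-fold from GMPs to cMoPs (2.01 ± 0.21, adjusted p = 1.42e-05) and was 5.9-fold higher in cMoPs than in CMPs (2.56 ± 0.2, adjusted p = 1.07e-07). GMPs minus CMPs was 0.55 ± 0.2 and did not pass (adjusted p = 0.0825), but it passed without GMP antibiotic 1 (0.67, adjusted p = 0.0291).

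Cd180, the receptor of that complex, was lowest in GMPs. Its arrays ranged from 6.7 to 7.67 in CMPs (median 7.18), from 6.41 to 6.9 in GMPs (median 6.6) and from 7.03 to 7.81 in cMoPs (median 7.4). Every cMoP array lay above every GMP array, and CMPs overlapped both. Cd180 rose 1.6-fold from GMPs to cMoPs (0.68 ± 0.14, adjusted p = 0.0077) and was 1.37-fold lower in GMPs than in CMPs (-0.45 ± 0.13, adjusted p = 0.0313). cMoPs minus CMPs was 0.23 ± 0.13 (adjusted p = 0.281). The rise to cMoPs was 0.31 ± 0.23 with control water alone (adjusted p = 0.782) and 1.06 ± 0.17 with antibiotic water alone (adjusted p = 0.00393).

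The Cd180 difference between GMPs and CMPs was -0.04 ± 0.21 with control water alone (adjusted p = 0.957) and -0.86 ± 0.17 with antibiotic water alone (adjusted p = 0.0057). The test of that difference between waters did not pass (-0.82 ± 0.27, adjusted p = 0.821). Averaged over both waters, the fall missed 0.05 without CMP antibiotic 1 (-0.37, adjusted p = 0.079), GMP antibiotic 1 (-0.43, 0.0662), GMP antibiotic 3 (-0.45, 0.0564), CMP control 2 (-0.36, 0.0715), GMP control 1 (-0.47, 0.0722) or GMP control 2 (-0.43, 0.1).

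Aoah, the enzyme that inactivates the lipid, differed most between progenitors among the 6 genes. It read 4.57, 4.08 and 3.99 in control CMPs and 4.5, 3.79 and 4.46 in antibiotic CMPs. It read 7.09 and 7.04 in control GMPs and 7.66, 7.74 and 7.39 in antibiotic GMPs. In cMoPs it read 7.55 and 7.71 with control water and 8.11, 7.94 and 7.84 with antibiotics. Each array of the later progenitors thus stood well clear of the CMPs. Aoah rose 8.57-fold from CMPs to GMPs (3.1 ± 0.14, adjusted p = 3.25e-10) and was 11.8-fold higher in cMoPs than in CMPs (3.56 ± 0.14, adjusted p = 5.18e-11). The CMP means of 4.21 and 4.25 lay near the array medians, and the files hold no detection calls. cMoPs minus GMPs was 0.47 ± 0.15 (adjusted p = 0.102), and it passed without CMP antibiotic 2 (0.47, adjusted p = 0.0421) or with only those progenitors in the fit (0.47, adjusted p = 0.0303).
Its start region is printed because Aoah had the widest range, and capitals mark matches as above.
Aoah, chr13:20793863-20794112: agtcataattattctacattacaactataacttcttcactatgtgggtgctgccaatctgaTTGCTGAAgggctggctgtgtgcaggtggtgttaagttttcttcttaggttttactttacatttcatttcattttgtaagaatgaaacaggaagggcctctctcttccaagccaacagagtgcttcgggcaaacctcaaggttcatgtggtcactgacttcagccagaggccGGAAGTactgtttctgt
The ETS letters lay at bases -17 to -12 and the C/EBP letters at bases -189 to -182.

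**Figure D2:**
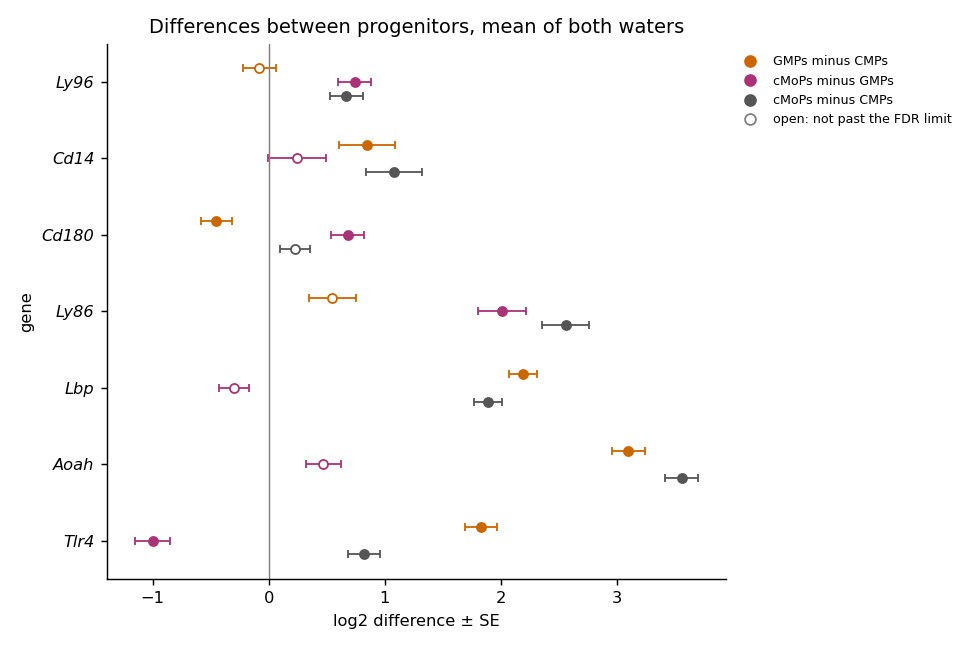
Log2 differences between progenitors (horizontal axis, ± SE from limma, mean of both waters) for the 6 genes and Tlr4, filled where the adjusted p was under 0.05. Aoah and Lbp differ mainly between CMPs and the later cells, Ly86 mainly between cMoPs and the rest, and Tlr4 is highest in GMPs.

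Counted together, 4 of the 6 genes passed between GMPs and CMPs, 3 higher in GMPs (Lbp, Cd14 and Aoah) and Cd180 lower, where 16% of all genes passed, 7.87% higher and 8.17% lower. Between cMoPs and GMPs 3 passed, all higher in cMoPs (Ly96, Cd180 and Ly86), against 5.42% of all genes in either direction and 2.6% higher. Between cMoPs and CMPs 5 passed, all higher in cMoPs, against 18.9% and 9.72%. Arrays of the progenitors did not overlap for 3, 3 and 4 of the 6 genes in these comparisons, and for 11.2%, 6.51% and 13.2% of all genes. The median log2 difference of the 6 was 0.7, 0.57 and 1.49 in these comparisons, beside 0.02, 0.01 and 0.04 over all genes. The comparisons share arrays, so their values are not independent of each other. Unmoderated variances, or testing every probe set of the table, left 2 genes between GMPs and CMPs, and with control water alone 1 gene, Ly86, passed between cMoPs and GMPs. The share of all genes that passed in those fits is not given here. Fewer calls there thus cannot be told from fewer calls among all genes.

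Markers of several cell types moved with these differences. The 8 monocyte markers, as log2 of their summed signal, lay at 10.72 to 11.76 in CMPs, 12.84 to 13.06 in GMPs and 13.57 to 13.72 in cMoPs. Ly6c2, a gene of the sort gate, was the brightest of the 8. Its group means were 10 and 10.57 in CMPs, 12.52 and 12.59 in GMPs and 12.67 and 12.72 in cMoPs. The median difference of the 8 was 0.59 for GMPs minus CMPs and 1.54 for cMoPs minus GMPs. All 8 passed as higher in cMoPs than in CMPs, as did 9.72% of all genes. The 6 primary granule markers lay at 12.89 to 13.63, 14.73 to 14.94 and 14.57 to 14.76. All 6 passed as higher in GMPs than in CMPs, as did 7.87% of all genes. The 7 erythroid markers lay at 12.96 to 13.13, 8.51 to 9.59 and 7.74 to 8.07. All 7 passed as lower in GMPs and in cMoPs than in CMPs, as did 8.17% and 9.2% of all genes. The 4 megakaryocyte markers followed the erythroid order, at 9.48 to 10.09, 7.61 to 8.44 and 6.14 to 6.56. Their part in the results on the 6 genes was not tested.

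Other lists bear on the B cell and phagocyte genes among the 6. The 9 B lineage markers lay at 8.25 to 9.21 on all arrays. At most 1 of the 9 had a group mean under 2.89, the lowest of the arrays' lower quartiles. That gene was Ms4a1, which encodes CD20, at group means of 2.73 to 2.94. Vpreb1 (2.92 to 3.64) and Ebf1 (3 to 3.48) lay little above that limit. The sum mostly followed Cd79b, which encodes a chain of the B cell receptor and had means of 7.59 to 8.55. The 9 dendritic cell and MHC class II markers lay at 9.27 to 9.86 in CMPs and 8.01 to 8.42 in GMPs and cMoPs, the 9 macrophage markers at 7.79 to 9.07 and the 7 T and NK markers at 5.86 to 6.21. The 10 late neutrophil markers lay at 12.85 to 13.24 in CMPs and GMPs and 12.45 to 12.61 in cMoPs. The 7 markers of mast cells, basophils and eosinophils were highest in GMPs at 12.37 to 13.11, against 10.76 to 11.26 in CMPs and 8.78 to 9.35 in cMoPs.

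The study asked how antibiotics affect these cells, and the 6 genes were compared between waters within each progenitor. Effects of water were tested at the false discovery rate of 0.2 that the study's design states. In GMPs, Ly96 fell by 1.04 ± 0.2 on the log2 scale, from a mean of 5.24 ± 0.25 (SD, n = 2) to 4.2 ± 0.24 (n = 3), with a limma adjusted p of 0.184. Each antibiotic GMP array lay below each control GMP array. On GMP antibiotic 1 and GMP antibiotic 2 Ly96 read 4.06 and 4.07, just under those arrays' medians of 4.12 and 4.14. Without detection calls, the size of a fall to that level is uncertain. Arrays of the waters did not overlap, in either direction, in 23% of all genes in GMPs. Ly96 was the 1 of 6 genes that passed, where 0.0721% of all genes passed (0.0225% lower), and it ranked at place 14 of 22180 by p.

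In CMPs the Ly96 difference had the opposite sign. It was 0.56 ± 0.18, from 4.52 ± 0.1 (SD, n = 3) to 5.08 ± 0.24 (n = 3), and each antibiotic array lay above each control array, but it did not pass (adjusted p = 0.492). Arrays of the waters did not overlap in 11.6% of all genes in CMPs. In cMoPs the arrays overlapped (0.2 ± 0.2, adjusted p = 0.947). The antibiotic effect in GMPs minus that in CMPs was -1.6 ± 0.27 (adjusted p = 0.129), which passed at 0.2, as did 0.0225% of all genes. The effect in cMoPs minus that in GMPs was 1.24 ± 0.29 and did not pass (adjusted p = 0.712), and 0% of all genes did. The effect in cMoPs minus that in CMPs was -0.36 ± 0.27 (adjusted p = 0.882), where 0.00902% passed. The F test over all 3 progenitors missed the threshold (F = 18.2, adjusted p = 0.269), where 0.00451% of all genes passed. It passed without cMoP antibiotic 2 (adjusted p = 0.16) or cMoP control 2 (adjusted p = 0.183). Over all genes, 0.825% had arrays that did not overlap in CMPs nor in GMPs and went opposite ways, as Ly96 did.

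The size of the Ly96 fall in GMPs held between -1.22 and -0.87 when any array was left out, but its place past the threshold did not. The adjusted p stayed under 0.2 without CMP antibiotic 2, CMP antibiotic 3, GMP antibiotic 3, cMoP antibiotic 1 or cMoP antibiotic 2, and rose to between 0.216 and 0.581 without any of the other 11 arrays. The difference between GMPs and CMPs stayed between -1.78 and -1.43 and passed only without CMP antibiotic 3, CMP control 1, GMP antibiotic 3, GMP control 2, cMoP antibiotic 1 or cMoP antibiotic 2, with adjusted p from 0.0672 to 0.526 over the 16 fits. The fall in GMPs also missed the threshold with unmoderated variances (adjusted p = 0.348) or with the replicate number as a block (adjusted p = 0.236). In GMPs the summed signals of other lists differed between waters too. Antibiotic and control arrays lay at 9.34 to 9.59 and 8.51 to 8.58 for erythroid markers, 12.92 to 13.11 and 12.37 to 12.67 for mast cell, basophil and eosinophil markers, and 8.83 to 9.07 and 8.64 to 8.67 for macrophage markers. The erythroid sum followed Car1, with means of 8.48 and 6.7, and 6 of the 7 erythroid markers had a positive difference (median 0.33). The mast cell, basophil and eosinophil sum followed Prg2, with means of 12.46 and 11.91, and 4 of its 7 markers had a positive difference (median 0.29). The macrophage sum followed Vcam1, with means of 8.11 and 7.42, while 3 of the 9 macrophage markers had a positive difference (median -0.1). The monocyte sums lay at 12.84 to 13.06 and 12.91 to 13, and 1 of the 8 monocyte markers had a positive difference (median -0.35). Megakaryocyte sums lay at 8.35 to 8.44 and 7.61 to 8.23, and late neutrophil sums at 13.13 to 13.24 and 13 to 13.07. Dendritic cell and MHC class II sums lay at 8.31 to 8.41 and 8.19 to 8.2. Of the markers in these sums, 3 of 4, 6 of 10 and 5 of 9 had a positive difference. Primary granule, B lineage and T and NK sums overlapped between waters. Across these lists, 1 erythroid marker passed the test in GMPs, where 0.0721% of all genes passed. Their part in the fall of Ly96 was not tested.

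**Figure D3:**
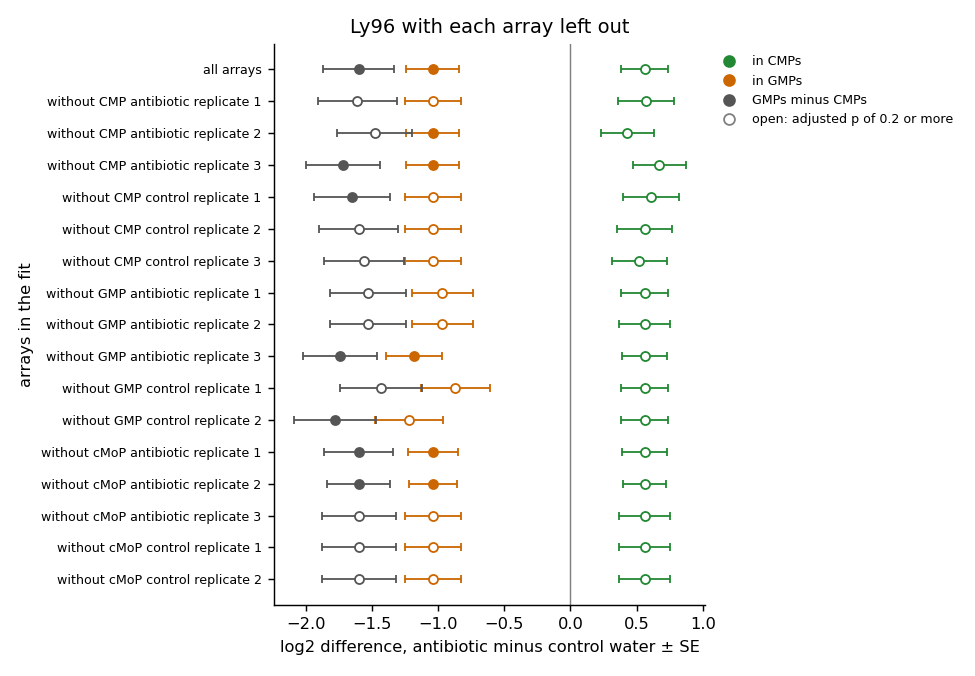
Antibiotic effect on Ly96 (horizontal axis, log2 difference ± SE) in CMPs, in GMPs and as GMPs minus CMPs, with all arrays in the top row and 1 array left out in each row below, filled where the adjusted p was under 0.2. The GMP values stay between -1.22 and -0.87 while their adjusted p crosses 0.2.

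The other 5 genes did not pass for antibiotics in any progenitor. Lbp had the smallest p of them, in CMPs, at -0.65 ± 0.16 (unadjusted p = 0.00113, adjusted p = 0.34), where CMP antibiotic 3 and CMP control 2 both read 7.71 and the other antibiotic arrays lay below all controls. Without CMP antibiotic 3 it was -0.86 and passed (adjusted p = 0.0728), and it passed with trend and robust variances (adjusted p = 0.12). In GMPs and cMoPs Lbp differed by 0.07 ± 0.18 and 0.09 ± 0.18. Primary granule markers in CMPs lay at 12.89 to 13.42 with antibiotics and 13.29 to 13.63 with control water, and monocyte markers at 10.72 to 11.54 and 11.43 to 11.76. Their part in the Lbp difference was not tested.

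The Ly86 difference was -0.59 ± 0.27 for CMPs, -0.69 ± 0.3 for GMPs and 0.15 ± 0.3 for cMoPs (adjusted p = 0.629 to 0.98). In GMPs the array GMP antibiotic 3, at 8.46, lay above both controls and the other antibiotic arrays, at 7.19 and 7.42, below them. Without that array the difference in GMPs was -1.08 (adjusted p = 0.194) and that over the progenitors -0.5 (adjusted p = 0.189), and both passed. Of the monocyte markers, 1 of 8 had a positive difference in CMPs (median -0.58) and in GMPs (median -0.35), and 4 of 8 did in cMoPs (median 0.02). In CMPs 1 of the 8 passed, as lower, and in GMPs 0 did, where 0.0406% and 0.0721% of all genes passed. Their sums in GMPs overlapped, at 12.84 to 13.06 with antibiotics and 12.91 to 13 with control water. Over the progenitors 4 of 8 passed as lower, where 0.514% of all genes passed in either direction. The part of these markers in the Ly86 difference was not tested. Its partner Cd180 showed differences of 0.46 ± 0.18 for CMPs, -0.36 ± 0.2 for GMPs and 0.39 ± 0.2 for cMoPs (adjusted p = 0.608 to 0.831). Each antibiotic array of Cd180 lay below the controls in GMPs and above them in cMoPs. Arrays of the waters did not overlap in 23% of all genes in GMPs and in 21% in cMoPs. The difference of effects for Cd180 was 0.75 ± 0.28 and did not pass (adjusted p = 0.853).

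The Cd14 difference was 0.06 ± 0.32 for CMPs, 0.91 ± 0.36 for GMPs and 0.4 ± 0.36 for cMoPs (adjusted p = 0.594 to 0.983). In GMPs each antibiotic array of Cd14 lay above both controls, and GMP antibiotic 1 was highest at 5.3. Aoah differed by 0.04 ± 0.19, 0.53 ± 0.21 and 0.33 ± 0.21 in the same order (adjusted p = 0.609 to 0.984), and each antibiotic array lay above each control in GMPs and in cMoPs. Arrays did not overlap in 23% of all genes in GMPs and in 21% in cMoPs, so separation alone is common with 3 arrays against 2. The 95% intervals for Aoah ran from 0.08 to 0.99 in GMPs and from -0.12 to 0.79 in cMoPs.

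**Figure D4:**
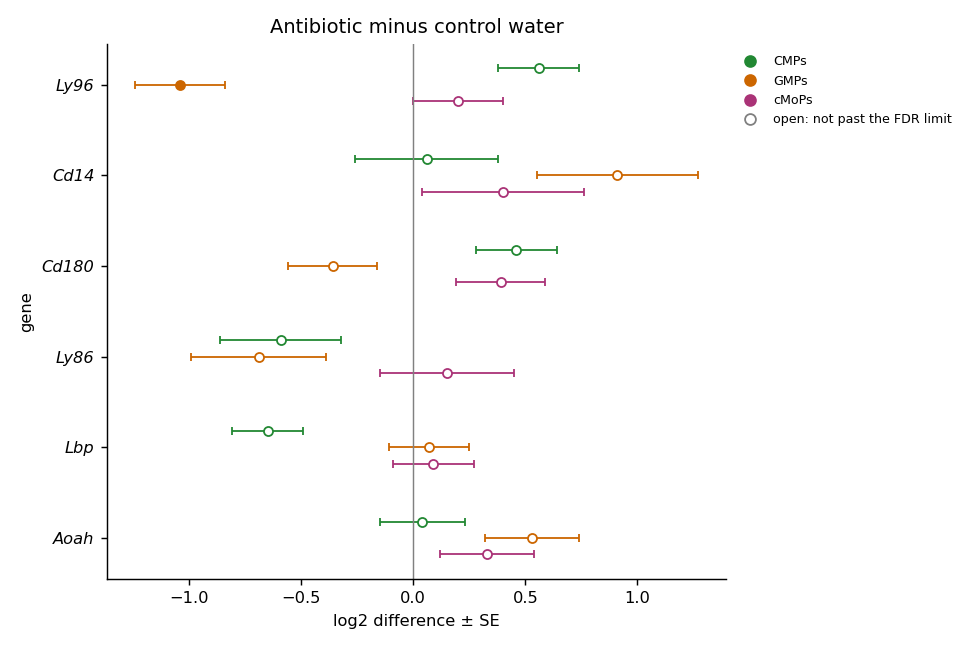
Antibiotic minus control water (horizontal axis, log2 difference ± SE from limma) for the 6 genes in CMPs, GMPs and cMoPs, filled where the adjusted p was under 0.2. Ly96 in GMPs is the single filled point, at -1.04.

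Averaged over the progenitors, 0 of the 6 genes passed in limma, where 0.514% of all genes did. At an unadjusted p under 0.05 there were 3: Cd14 (0.46 ± 0.2), Ly86 (-0.38 ± 0.17) and Aoah (0.3 ± 0.12), against 9.54% of all genes. The corresponding counts were 4 in CMPs (7.24% of all genes), 4 in GMPs (7.49%) and 0 in cMoPs (6.2%). For CMPs and cMoPs the number past a false discovery rate of 0.2 was 0, where 0.0406% and 0.131% of all genes passed. The median difference of the 6 genes over the progenitors was 0.04, beside -0.01 over all genes. With unmoderated variances the count was also 0 over the progenitors, in CMPs and in cMoPs, and it was 0 in GMPs. The share of all genes in that fit is not given here.

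In each comparison, most genes around TLR4 and downstream of it did not pass. Among those that passed against CMPs, more were higher than lower, both in GMPs and in cMoPs. In a list of receptor, adaptor, kinase, NF-kB and chaperone genes, 33 of 38 were measured. Of these, 11 were higher and 1 lower in GMPs than in CMPs, 11 were higher and 3 lower in cMoPs than in CMPs, and 1 was higher and 2 lower in cMoPs than in GMPs. Of all genes, 7.87% were higher and 8.17% lower in the first comparison, 9.72% and 9.2% in the second and 2.6% and 2.82% in the third. The largest increases in GMPs over CMPs were in Ikbke, a kinase of the interferon branch (1.97 ± 0.11), Tlr4 and Irak3, a brake on TLR signalling (1.26 ± 0.11). Irak3 was again lower in cMoPs than in GMPs (-0.84 ± 0.11). Rela passed as lower than in CMPs both in GMPs (-0.36 ± 0.09) and in cMoPs (-0.46 ± 0.09). Sigirr (-0.4 ± 0.11) and Tab3 (-0.58 ± 0.19) passed as lower in cMoPs than in CMPs. Ticam2, the adaptor that links TLR4 to the interferon branch, was 1.2 ± 0.12 higher in cMoPs than in CMPs and 0.5 ± 0.12 higher than in GMPs. For antibiotics, 0 of the 33 passed in limma over the progenitors, in CMPs, in GMPs or in cMoPs. Of all genes, 0.514%, 0.0406%, 0.0721% and 0.131% passed, in that order. At an unadjusted p under 0.05 there were 2, 1, 0 and 2 of the 33 in the same order, against 9.54%, 7.24%, 7.49% and 6.2% of all genes.

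A second list held 13 other genes that bind or dispose of endotoxin, all measured. In GMPs against CMPs 4 were higher and 3 lower (7.87% and 8.17% of all genes), in cMoPs against CMPs 3 were higher and 3 lower (9.72% and 9.2%), and in cMoPs against GMPs 0 were higher and 2 lower (2.6% and 2.82%). Itgam, an integrin chain of phagocytes, was 1.11 ± 0.12 higher in GMPs than in CMPs and fell by 0.97 ± 0.12 from GMPs to cMoPs. Cd36, a scavenger receptor, fell by 1.9 ± 0.23 from CMPs to GMPs, and Ltf, lactoferrin, by 0.79 ± 0.14. Casp4, a sensor of lipopolysaccharide inside the cell, fell by 0.53 ± 0.13 from GMPs to cMoPs.

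Among 16 genes that endotoxin induces in mature cells, 0 were higher and 2 lower in GMPs than in CMPs (7.87% and 8.17% of all genes), 3 were higher and 2 lower in cMoPs than in CMPs (9.72% and 9.2%), and 1 was higher and 0 lower in cMoPs than in GMPs (2.6% and 2.82%). The lower genes were the chemokine genes Ccl3 (-2.22 ± 0.27 in GMPs and -1.43 ± 0.27 in cMoPs, each minus CMPs) and Ccl4 (-0.87 ± 0.18 and -1.1 ± 0.18). Tnf, the cytokine, was 0.96 ± 0.19 higher in cMoPs than in CMPs. Zfp36, which destabilises cytokine mRNA, was 0.81 ± 0.14 higher in cMoPs than in GMPs. For antibiotics 0 of the 13 and 0 of the 16 passed in limma over the progenitors, where 0.514% of all genes did. At an unadjusted p under 0.05 there were 4 and 1, against 9.54% of all genes.

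**Figure D5:**
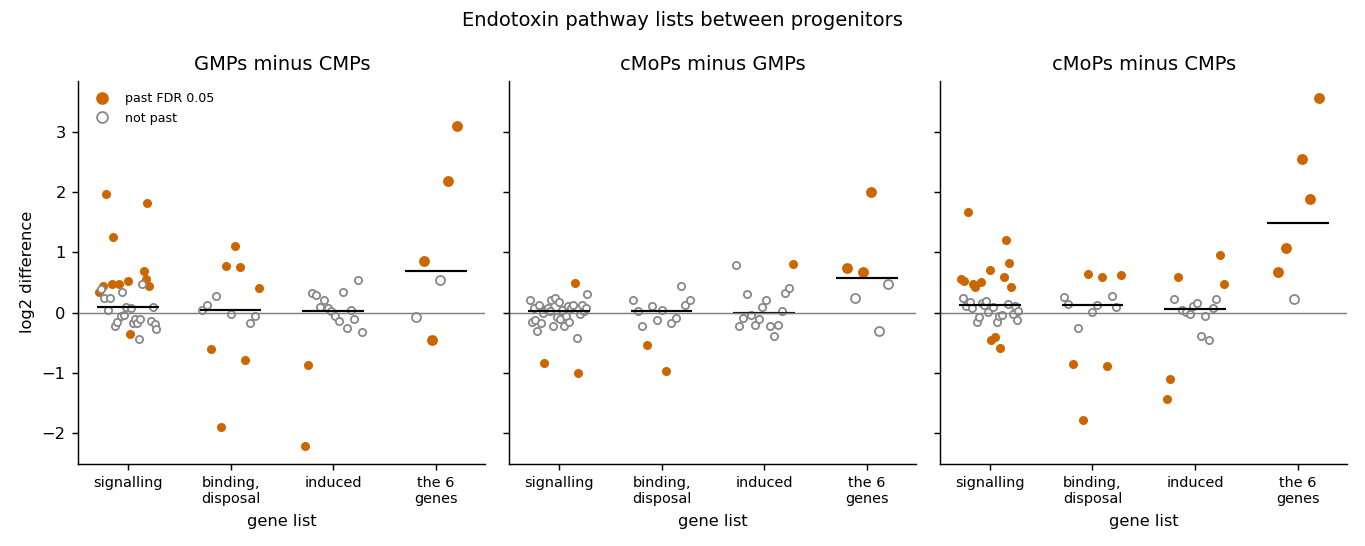
Log2 differences between progenitors (vertical axis) for each measured gene of the 3 endotoxin lists and for the 6 genes, filled where the adjusted p was under 0.05, with bars at the medians. The medians of the lists lie between -0.01 and 0.13, and those of the 6 genes at 0.7, 0.57 and 1.49.

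The genes most like each of the 6 were sought by Pearson correlation over the 16 arrays among genes brighter than the median gene. These values mostly follow the 3 progenitors, which the arrays share, and carry no test. Lbp was most like Anxa3 (r = 0.99), Sgms2 (0.989) and Elane, neutrophil elastase (0.988). Ly86 was most like Pld4 (0.977), Lamp1 (0.975) and Csf1r (0.968), the gene of the CD115 gate. Aoah was most like App (0.983), Kctd20 (0.981) and Napsa (0.981).

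The genes with smaller differences had looser neighbours. Cd14 was most like Slc35f5 (r = 0.877), Tlr6, another Toll-like receptor (0.874), and Ppm1m (0.861). Ly96 was most like Rasa4 (0.844) and the histone genes H2bc3 (0.821) and H2ac10 (0.815), and Cd180 most like Dhrs3 (0.817), Fbxo28 (0.815) and Emp3 (0.814). Among the 6 themselves, over 16 arrays, r was 0.941 for Lbp with Aoah, 0.745 for Cd14 with Aoah, 0.731 for Ly96 with Cd180 and 0.385 for the partners Cd180 and Ly86. For Ly96 with its receptor Tlr4 it was -0.093.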

How the data were processed

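RNA of 16 sorted samples was amplified from 2.6 ng and hybridised, per the labels' protocols. The deposited table holds a log2 signal with 2 decimals per probe set, and the submitters' processing notes name Transcriptome Analysis Console and Partek as the authors' tools. How probes were summarised and normalized is not stated there. Of 41345 probe sets, 23521 carried 1 symbol, which gave 22180 genes (brightest probe set of a gene). The 1814 with several symbols and 16010 with none were not used here. Limma 3.58.1 in R 4.3.3 fitted a mean for each of the 6 groups (10 residual and 5.28 prior degrees of freedom), with two-sided tests adjusted by Benjamini-Hochberg over all genes. Errors of differences are standard errors. The fit was tested on simulated data.

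The 6 genes, the lists and the motifs were chosen with earlier results of these data known. Named from the 3 endotoxin lists were Tlr4 and, per comparison of progenitors, at most the 4 highest and 4 lowest genes that passed. Alternatives varied the probe set, filter, variances, normalization, block and arrays. Promoters came from RefSeq (GRCm38.p6).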

Additional observations from a re-analysis of the deposited data

Results flagged for a closer look

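Ly96 drew attention because its antibiotic effect differed between progenitors. The effect in GMPs minus that in CMPs was -1.6 (± 0.27 SE, limma adjusted p = 0.129). All 3 antibiotic arrays lay below both controls in GMPs, and all 3 lay above all 3 controls in CMPs. Arrays of the waters did not overlap, in either direction, in 23% of all genes in GMPs and in 11.6% in CMPs. In 0.825% of all genes they did not overlap in CMPs nor in GMPs and went opposite ways. The F test over the 3 progenitors did not pass (adjusted p = 0.269).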

How the results depend on the processing

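Depth is not defined for arrays, and Cd14 has no value when only genes brighter than the median gene are kept. Alternatives were compared by how many of the 6 genes passed, not by which. Between GMPs and CMPs, for example, Ly96 passed as higher with control water alone and as lower with antibiotic water alone, but not over both. The counts of the 6 genes past the threshold were the same, within 1.5 times, in 92 of 103 alternatives that kept all arrays or a stated subset. These include comparisons where a count of 0 stayed at 0. In the remaining alternatives the counts differed. With every probe set tested, 0 passed for antibiotics in GMPs, 2 between GMPs and CMPs and 0 for GMPs minus CMPs in the antibiotic effect. With unmoderated variances these counts were 0, 2 and 0. With the replicate number as a block they were 0 for antibiotics in GMPs and 0 for GMPs minus CMPs, where Ly96 was -1.05 (adjusted p = 0.236) and -1.61 (adjusted p = 0.339), and Ly86 between GMPs and CMPs was 0.64 and passed (adjusted p = 0.0138). Trend and robust variances gave 1 in CMPs, fitting GMPs alone gave 0 in GMPs, and control water alone gave 1 between cMoPs and GMPs. The share of all genes that passed in each of these fits is not given here, and the causes were not tested. The labels do not say whether same-numbered samples share animals, and the main fit did not treat the numbers as pairs. Deviations of same-numbered arrays correlated at -0.049 to 0.104 over 36 pairs, 1 of them over 0.1. Those pairs include arrays of different waters, which cannot share animals. Within the same water the median r was 0.0286 over 15 same-numbered pairs and -0.0154 over 28 pairs of different number. The best match of each array was sought over both waters, and for 10 of 16 arrays it had the same number. Because that search included arrays that cannot share animals, the count does not bear on pairing. These values do not settle whether samples were paired.

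Leaving out an array gave counts of 0 to 1 over the progenitors, 0 to 1 in CMPs, 0 to 2 in GMPs, 2 to 4 between GMPs and CMPs, 0 to 1 for GMPs minus CMPs in the antibiotic effect and 0 to 1 for the F test. Where it left 1 control array, that array was assumed to vary like the other groups. Shares of all genes in these fits are not given here.

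The direction turned for differences that were small in the main fit. For antibiotics these were Aoah in CMPs (-0.03 with quantile normalization, -0.01 with median-centred arrays), Lbp in GMPs (-0.02) and cMoPs (0) and Ly86 in cMoPs (-0.02) with the block. Between effects they were Lbp, cMoPs minus GMPs (-0.03 with quantile normalization) and Cd180, cMoPs minus CMPs (0 with median-centred arrays). Between progenitors they were Ly96, GMPs minus CMPs (0.72, control water) and Cd14, cMoPs minus GMPs (-0.02, antibiotic water). The turned Ly96 difference was itself not small and passed (limma adjusted p = 0.0385). Leaving out an array turned Aoah (-0.09 to 0.27) and Cd14 (-0.26 to 0.26) for antibiotics in CMPs, Ly96 for GMPs minus CMPs (-0.16 to 0.01), and the differences of effects of Ly86 for GMPs minus CMPs (-0.49 to 0.14), Cd180 for cMoPs minus CMPs (-0.25 to 0.09) and Lbp for cMoPs minus GMPs (-0.04 to 0.07).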
